A study of Mus musculus with 9 samples.

Results

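The 3 retinal samples taken 12 hours after pups left high oxygen, at P12.5 (P for postnatal day), were compared with 3 of the 6 samples taken at P12. These were the P12 arrays on which the deposited expression ratios were not centred. The P12 arrays were picked from the ratios themselves: over control 1, hyperoxic 2 and hyperoxic 3 the median ratio was 1 within 0.0015 at 100% of probes, and the next of 84 sets of 3 arrays reached 42.7%. Those 3 arrays are called the reference P12 arrays, and the remaining P12 arrays, control 2, control 3 and hyperoxic 1, are called the non-reference P12 arrays. The comparison thus used 6 of 9 arrays, 3 against 3, and the reference P12 arrays entered the same model for their spread and for values given alongside.

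Whole retinas of C57BL/6N mice were measured on Illumina bead arrays under oxygen-induced retinopathy. Every array carried biotin-labelled cRNA from both retinas of 1 mouse, and the design text calls the mice of a condition biological replicates. The labelled conditions were hypoxic_P12.5, pups kept with their mothers in 75% oxygen from P7 for 5 days and then 12 hours in room air; hyperoxic_P12, pups sampled on leaving that oxygen; and control_P12, normal mice. No transgene or mutant allele is named for any group.

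The non-reference P12 set mixes 2 arrays labelled control with 1 labelled hyperoxic, and the reference P12 set mixes 1 labelled control with 2 labelled hyperoxic. Next to the 3 hyperoxic signals stood detection p-values that followed the signals of control 2, control 3 and hyperoxic 1, which are the non-reference arrays, and 5 of 9 such columns followed an array other than the one beside them. The labels of these P12 arrays are therefore in doubt, and no oxygen condition is assigned to either P12 set. The samples hold no normal mice at P12.5, so 12 hours of age and of time of day cannot be told apart from the treatment. By Xist and Eif2s3y, 1 of 3 arrays in each set had a female pattern (hypoxic 2 among the P12.5 arrays, control 3 among the non-reference and control 1 among the reference P12 arrays).

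Hyperoxic 1 stood apart before any comparison. Its median intensity was 163.6, against 67.4 to 82.3 on the other 8 arrays, and 30.6% of its probes were detected, against 42.1% to 44.5%. Its mean correlation with the other arrays was 0.963, against 0.977 to 0.983. Results are given with and without it.

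In oxygen-induced retinopathy, high oxygen stops the growing retinal capillaries and prunes those already formed. Room air then leaves the poorly perfused retina short of oxygen, and in such tissue the hypoxia-inducible factors (HIF) escape degradation by prolyl hydroxylases, bind short DNA elements and raise genes of glucose uptake, glycolysis, vessel growth and pH control. Muller glia, the radial glia of the retina, are a known source of vascular growth factors there and respond to injury through cytokines of the LIF family and STAT3.

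The promoters of the hypoxia and glycolysis genes are shown because HIF recognises the core letters ACGTG and GCGTG. Windows run from 250 bases before to 50 bases after the annotated start (RefSeq, GRCm38.p6), are written 5′ to 3′ on the gene's strand, and carry in capitals each place where ACGTG or GCGTG stands on either strand. Overlapping matches count as 1 place. The 6 called genes shown are those with the most places and, among equals, the largest difference.
Pfkp (chr13:6648722-6649021, minus strand): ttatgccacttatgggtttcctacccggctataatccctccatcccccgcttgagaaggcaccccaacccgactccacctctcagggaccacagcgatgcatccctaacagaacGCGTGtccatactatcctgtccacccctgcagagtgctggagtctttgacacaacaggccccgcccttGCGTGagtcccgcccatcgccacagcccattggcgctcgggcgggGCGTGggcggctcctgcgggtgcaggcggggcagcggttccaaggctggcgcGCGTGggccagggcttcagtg
Pgam1 (chr19:41911621-41911920, plus strand): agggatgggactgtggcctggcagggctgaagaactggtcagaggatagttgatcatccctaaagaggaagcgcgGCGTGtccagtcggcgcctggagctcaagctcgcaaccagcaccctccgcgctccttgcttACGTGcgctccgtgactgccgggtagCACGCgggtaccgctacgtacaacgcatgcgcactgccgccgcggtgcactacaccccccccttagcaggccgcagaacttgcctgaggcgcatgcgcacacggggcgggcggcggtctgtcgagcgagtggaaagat
Igfbp3 (chr11:7213874-7214173, minus strand): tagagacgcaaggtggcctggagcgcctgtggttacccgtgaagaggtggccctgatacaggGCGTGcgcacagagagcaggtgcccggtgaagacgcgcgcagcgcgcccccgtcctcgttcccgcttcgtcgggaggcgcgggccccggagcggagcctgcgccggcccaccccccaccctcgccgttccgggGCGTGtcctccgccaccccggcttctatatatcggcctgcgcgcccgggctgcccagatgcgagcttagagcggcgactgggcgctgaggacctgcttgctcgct
Higd1a (chr9:121857747-121858046, minus strand): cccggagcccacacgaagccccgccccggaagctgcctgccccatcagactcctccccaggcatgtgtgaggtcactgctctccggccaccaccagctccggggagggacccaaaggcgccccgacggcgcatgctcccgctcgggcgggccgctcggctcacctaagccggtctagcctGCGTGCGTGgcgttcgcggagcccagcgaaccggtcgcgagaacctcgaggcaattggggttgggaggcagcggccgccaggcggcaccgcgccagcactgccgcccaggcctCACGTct
Mt1 (chr8:94178839-94179138, plus strand): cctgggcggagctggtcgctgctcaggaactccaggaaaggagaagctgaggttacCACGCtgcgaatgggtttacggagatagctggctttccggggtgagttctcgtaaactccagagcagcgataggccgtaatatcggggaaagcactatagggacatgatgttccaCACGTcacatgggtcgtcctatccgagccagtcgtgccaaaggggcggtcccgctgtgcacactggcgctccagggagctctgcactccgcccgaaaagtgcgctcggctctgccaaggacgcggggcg
Adm (chr7:110627407-110627706, plus strand): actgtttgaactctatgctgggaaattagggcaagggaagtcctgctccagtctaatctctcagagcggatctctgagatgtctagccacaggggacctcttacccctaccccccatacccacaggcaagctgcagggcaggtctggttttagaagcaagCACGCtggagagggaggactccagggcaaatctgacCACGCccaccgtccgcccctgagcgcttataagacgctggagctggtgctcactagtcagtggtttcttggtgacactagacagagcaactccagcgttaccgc

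A window was found for 20 of the 26 called members of the glycolysis and HIF target lists, and 17 of these (85%) held ACGTG or GCGTG on either strand. Among the tested members that were not called, 16 of 23 (69.57%) held a motif, and over all genes tested 61.83% did. ACGTG alone stood in 9 of the 20 called windows (45%), in 11 of the 23 others (47.83%) and in 25.85% over all genes tested. Pfkp had 4 such places and Pgam1 3, while the windows of Vegfa, Mxi1 and Tpi1 had 0. A match describes these letters and no binding was measured.

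Of 19626 probes tested, 828 (4.22%) were higher and 384 (1.96%) were lower at P12.5 than on the non-reference P12 arrays (limma, Benjamini-Hochberg adjusted p under 0.05, which is what called, rose and fell mean throughout). By gene, with the most intense tested probe standing for each of 10956 genes, 483 rose (4.41%) and 268 fell (2.45%), and the median difference over all genes was -0.01 on the log2 scale. Rises were larger than falls: 108 genes rose and 6 fell by 2-fold or more. Every called gene had 3 P12.5 arrays lying wholly beyond the 3 non-reference arrays, a separation, in one direction or the other, that 35.7% of all genes tested also showed.

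That split rests on quantile scaling. With arrays centred on their medians instead, 2371 probes were higher and 10 lower, while the median of all probes moved to 0.37 from 0.02, and the authors' deposited ratios gave 25 higher and 0 lower with a median of 0.24. Small falls are therefore given relative to the quantile scale. Leaving out any 1 of the P12.5 arrays left 104 to 131 probes higher and 26 to 38 lower, and without control 2 there were 313 and 105. Hyperoxic 3, a reference array that enters only the shared spread and the scaling, also mattered, with 406 and 151 without it. Without hyperoxic 1 there were 960 and 602, 77.7% and 50.5% of which were among the calls made with it.

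**Figure D1:**
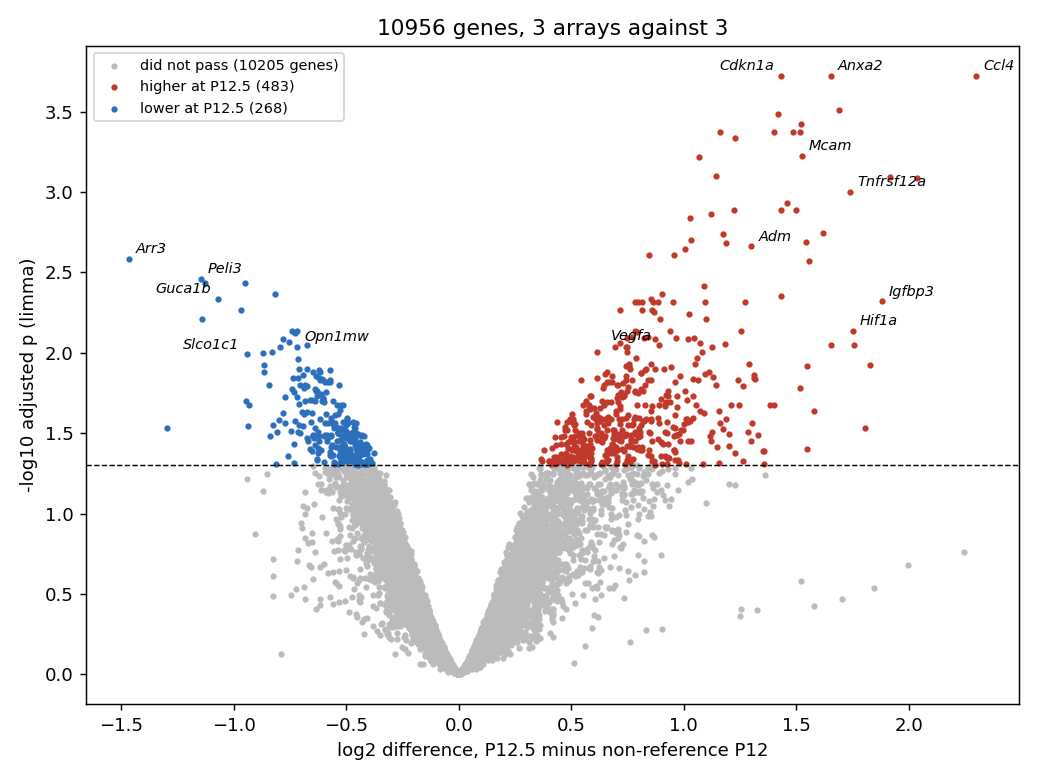
Each point is 1 of 10956 genes, with the log2 difference P12.5 minus non-reference P12 on the x axis and -log10 of the limma adjusted p on the y axis; the dashed line marks an adjusted p of 0.05. The 483 genes that rose reach further from 0 than the 268 that fell, with Ccl4 at 2.30 and Arr3 at -1.47.

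Many genes known as HIF targets rose. In the list of HIF targets outside glycolysis 17 of 30 tested genes rose and 0 fell, against 4.41% and 2.45% of all genes, with a median difference of 0.82 against -0.01. At an unadjusted p under 0.05, 23 were higher and 0 lower, where 1504 of all 10956 genes were higher and 1430 lower. Those counts over all genes stand beside every unadjusted count given below. With median centring the list's median was 1.16 against 0.37 for all genes, and with the deposited ratios 0.78 against 0.27. The list had 37 entries, 33 with a named probe, and 20 of the 30 tested were detected on all 3 non-reference arrays. The other 10 entered the test through another set, so the list was also read over genes detected on all 6 arrays compared: 12 of 20 rose and 0 fell (median 0.48), where 5.86% of all such genes rose and 6.78% fell (median -0.05). Values per array are normalised log2 levels, in the order hypoxic 1, 2 and 3 for P12.5, then control 2, control 3 and hyperoxic 1 for the non-reference set, and control 1, hyperoxic 2 and hyperoxic 3 for the reference set. Differences are log2, P12.5 minus non-reference P12, with the standard error and adjusted p from limma (3 arrays per set).

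Adm, which encodes the vasodilator peptide adrenomedullin, had levels of 6.66, 6.43 and 6.45 at P12.5, against 5.50, 5.08 and 5.05 on the non-reference arrays, a difference of 1.30 ± 0.14 (adjusted p = 0.00217). The reference arrays read 5.18, 5.48 and 5.34, level with the non-reference ones. Vegfa, the main growth factor of retinal vessels, had levels of 10.68, 10.73 and 10.56 at P12.5, against 9.62, 9.99 and 9.69 on the non-reference arrays (0.89 ± 0.13, adjusted p = 0.00901). The mean of its reference arrays, at 10.26, 10.24 and 9.94, lay between the other set means, though hyperoxic 3 (9.94) was below control 3 (9.99). The difference of P12.5 from the reference arrays was 0.51 (adjusted p = 0.0395). Vegfa and Adm rose whichever P12 set was used, and the P12 sets did not differ for either at the threshold (adjusted p = 0.126 and 0.636).

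Sensors of the pathway moved as well. Egln3, a prolyl hydroxylase that marks HIF for degradation, had levels of 6.85, 6.38 and 6.55 at P12.5, against 5.02, 5.52 and 4.95 on the non-reference arrays (1.43 ± 0.18, adjusted p = 0.00441), although its second probe differed by 0.16. Egln3 was detected on 1 of 3 non-reference and 2 of 3 reference arrays, so it entered the test through the P12.5 arrays alone. Its paralogue Egln1 had levels of 9.60, 9.63 and 9.58 at P12.5, against 8.73, 8.74 and 8.49 (0.95 ± 0.12, adjusted p = 0.00483). Hif1a, the oxygen-regulated subunit itself, read 7.24, 6.94 and 7.12 at P12.5, against 5.52, 5.72 and 4.82 (1.75 ± 0.25, adjusted p = 0.00732). For all 3 genes the P12.5 arrays lay above both P12 sets, whose difference was -0.25 to 0.20.

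The secreted and mitochondrial targets followed the same order. Igfbp3, an insulin-like growth factor binding protein whose promoter is printed above, had levels of 7.08, 6.76 and 7.01 at P12.5, against 5.38, 5.37 and 4.46 (1.88 ± 0.24, adjusted p = 0.0048). It was detected on 2 of 3 non-reference and 2 of 3 reference arrays, so it too entered the test through the P12.5 arrays alone. Its second probe differed by 0.96. Higd1a, a small mitochondrial protein of the hypoxia response, had levels of 6.63, 6.57 and 6.53 at P12.5, against 5.00, 5.25 and 4.84 (1.55 ± 0.17, adjusted p = 0.00206). Only 1 of 3 non-reference arrays detected Higd1a. Here the reference arrays read 5.65, 6.32 and 5.93, so that the difference of P12.5 from them was 0.61 (adjusted p = 0.0486). Stc2, a secreted glycoprotein, read 6.00, 6.07 and 5.76, against 5.04, 5.14 and 4.94 (0.91 ± 0.11, adjusted p = 0.0043), and was likewise detected on 1 of 3 non-reference arrays. Ddit4, an inhibitor of mTOR signalling, read 7.58, 7.67 and 7.53, against 6.62, 6.62 and 6.74 (0.93 ± 0.17, adjusted p = 0.0185), and 2 of its reference arrays (7.45 and 7.23) came near the P12.5 levels.

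The remaining called members were Ak4 (1.16), an adenylate kinase of mitochondria, Mxi1 (1.13), an antagonist of Myc, the collagen-modifying enzymes Loxl2 and Plod2, the clock-linked repressor Bhlhe40 (0.74), the mitophagy receptor Bnip3l (0.69), Hmox1, Mt1 and Mt2. The metallothioneins bind zinc and copper and have many inducers besides hypoxia. Mt1 had levels of 12.79, 12.75 and 12.63 at P12.5, against 11.22, 11.24 and 11.50 (1.40 ± 0.12, adjusted p = 4.21e-04), and Mt2 differed by 0.94 ± 0.13. Mt3, the growth-inhibitory form of brain, moved the other way, with 7.69, 7.85 and 7.38 at P12.5, against 8.10, 8.55 and 8.57 (-0.77 ± 0.16, adjusted p = 0.0273). Hmox1, the inducible heme oxygenase, had levels of 7.26, 6.84 and 7.09 at P12.5, against 5.78, 6.18 and 5.94 (1.10 ± 0.14, adjusted p = 0.00483). Among members that did not pass were Ndrg1 (0.29, adjusted p = 0.115), a stress-regulated gene of differentiation, and Car9 (0.26), the tumour-linked carbonic anhydrase. Epo, Bnip3 and Zfp395 were detected too rarely to be tested.

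In glucose uptake and glycolysis 9 of 21 tested genes rose and 0 fell (median 0.35), against 4.41% and 2.45% of all genes. At an unadjusted p under 0.05, 11 were higher and 2 lower. The glucose transporter Slc2a1 had levels of 11.97, 11.74 and 11.82 at P12.5, against 11.24, 11.36 and 11.01 (0.64 ± 0.12, adjusted p = 0.02), and the neuronal transporter Slc2a3 differed by 0.76 ± 0.12. Hk2, the hexokinase that traps glucose in the cell, had 10.20, 10.22 and 10.16 at P12.5, against 9.24, 9.40 and 8.87 (1.02 ± 0.14, adjusted p = 0.00571). Both P12 sets lay below every P12.5 array for these genes.

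Further down the pathway the P12 sets parted. Pgk1, phosphoglycerate kinase, had 12.24, 12.25 and 12.38 at P12.5, against 11.46, 11.46 and 11.41 on the non-reference arrays (0.85 ± 0.10, adjusted p = 0.00246). The reference arrays stood at 11.97, 12.07 and 11.93, and the difference of P12.5 from them was 0.30 (adjusted p = 0.0841). Pgam1, phosphoglycerate mutase, had 7.29, 7.25 and 7.02, against 5.61, 5.61 and 5.07 (1.76 ± 0.26, adjusted p = 0.00901), while 1 reference array, hyperoxic 2, read 7.24, as high as P12.5. Tpi1, triosephosphate isomerase, rose by 0.61 ± 0.09 on 1 probe and by 0.03 on its other. The phosphofructokinase subunits Pfkp (1.05 ± 0.20) and Pfkl (0.51 ± 0.12) rose against the non-reference arrays, and Pfkm was at -0.04. Against the reference arrays neither passed, with Pfkp at 0.51 (adjusted p = 0.154) and Pfkl at -0.04 (adjusted p = 0.872), and Pfkl was lower in the non-reference than in the reference arrays (-0.55, adjusted p = 0.0315). Pdk1, the kinase that closes pyruvate's entry into mitochondria, read 8.24, 8.06 and 8.30 at P12.5, against 7.30, 7.28 and 6.58 (1.14 ± 0.20, adjusted p = 0.0159). The 12 members that did not pass ran from -0.35 to 0.41. Among them were Gapdh (0.11), the enzyme just before Pgk1, pyruvate kinase Pkm (0.19) and lactate dehydrogenase Ldha (0.16), which follow Pgam1, the lactate carrier Slc16a3 (0.13), and Ldhb, the subunit favouring pyruvate formation (-0.35, adjusted p = 0.0951). The carrier Slc16a1 was not tested.

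**Figure D2:**
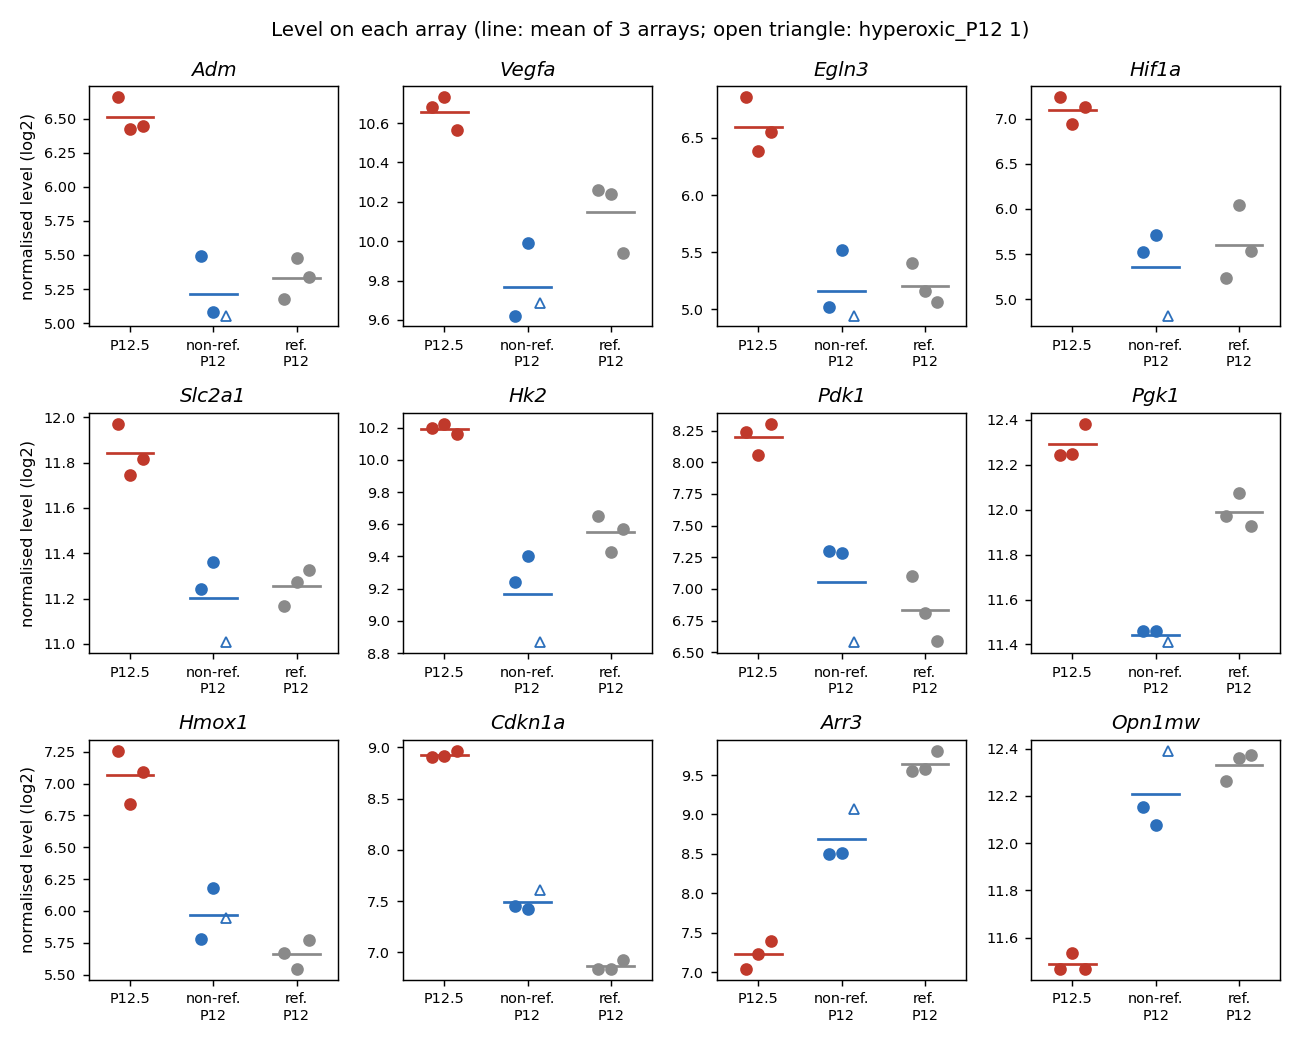
Normalised log2 level (y axis, a separate scale for each gene) of 12 genes on each array, for P12.5, non-reference P12 and reference P12 arrays from left to right; lines are means of 3 arrays and the open triangle is hyperoxic 1. In the 10 genes that rose every P12.5 array lies above both P12 sets, and in Arr3 and Opn1mw every P12.5 array lies below them.

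Among angiogenic ligands and receptors 3 of 27 tested genes rose and 0 fell (median -0.03), against 4.41% and 2.45% of all genes. At an unadjusted p under 0.05, 5 were higher and 2 lower, beside 1504 higher and 1430 lower of all 10956 genes. Besides Vegfa and Adm the third was Pdgfb, the endothelial signal that recruits pericytes (0.51 ± 0.13, adjusted p = 0.0442). Pdgfb read 6.36, 6.19 and 6.12 at P12.5, against 5.65, 5.94 and 5.56 on the non-reference arrays and 6.63, 6.54 and 6.74 on the reference arrays, so it was highest in the reference set. Angpt2, which loosens vessels, read 7.25, 7.25 and 7.14 at P12.5, against 6.98, 6.61 and 6.84, without overlap, and did not pass (0.41 ± 0.11, adjusted p = 0.0616). The VEGF receptor genes Kdr (0.22) and Flt1 (-0.28), the Tie receptor Tek (-0.01) and the co-receptor Nrp1 (0.19) did not pass. Apln, Edn2 and Esm1, known tip-cell or hypoxia genes of this model, were not detected on all arrays of any set and were not tested.

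Endothelial genes were far lower at P12.5 than on the reference arrays and near the level of the non-reference ones. Against the non-reference arrays 4 of 28 tested endothelial genes rose and 1 fell (median 0.15), where 4.41% of all genes rose and 2.45% fell. Over genes detected on all 6 arrays compared, 1 of 13 rose and 1 fell (median 0.01). Of all such genes 5.86% rose and 6.78% fell, so these counts were near the share of all genes. Against the reference arrays 1 rose and 24 fell, with a median of -0.86, where 5.14% of all genes rose and 6.01% fell. The test of the difference between the P12 sets gave 24 of 28 lower in the non-reference arrays and 0 higher, with a median of -1.07, where 3.21% of all genes were lower and 1.98% higher (by probe, 535 or 2.73% lower and 331 or 1.69% higher). These comparisons share arrays in pairs and are set side by side only. All 28 were detected on every reference array, 24 on all P12.5 arrays and 13 on all non-reference arrays. No non-reference array detected 4 of them. Members could thus enter the test through the reference arrays, where most were high, so the counts involving that set are no measure of the list. Under median centring the median between the P12 sets was -1.25, and on the deposited ratios it was -0.87, while the median of all genes was -0.25 and -0.24. The list's median for P12.5 minus non-reference P12 was 0.48 against 0.37 for all genes under median centring and 0.25 against 0.27 on the deposited ratios, so a place above the non-reference set rests on the scaling. Leaving out any 1 of the 9 arrays left 22 or 23 of the 28 lower in the non-reference arrays. In whole retina, fewer endothelial cells and less RNA per cell cannot be told apart.

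Emcn, a sialoglycoprotein of capillaries and veins, read 6.71, 6.68 and 6.79 at P12.5, 6.04, 5.78 and 5.67 on the non-reference arrays, and 7.56, 7.33 and 7.59 on the reference arrays. It rose by 0.90 ± 0.12 against the first of these P12 sets (adjusted p = 0.00612) and lay 0.77 below the other, at a difference of -0.77 (adjusted p = 0.00439). Robo4, a guidance receptor of endothelium, read 7.12, 7.05 and 6.82 at P12.5, against 6.42, 6.28 and 6.06 on the non-reference arrays (0.75 ± 0.13, adjusted p = 0.014) and 7.99, 8.14 and 8.10 on the reference arrays. Its second probe differed by -0.25. Cd34 was detected on no non-reference array and was at least 1.07-fold higher at P12.5 (adjusted p = 0.026), and the adhesion receptor Adgrl4 rose by 0.74 ± 0.16. Emcn, Robo4, Cd34 and Adgrl4 had P12.5 arrays above every non-reference array and below every reference array.

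The junction genes Pecam1 and Cdh5 did not pass against the non-reference arrays and were lower than the reference arrays. Pecam1 read 6.70, 6.64 and 6.52 at P12.5, against 6.42, 6.43 and 5.68 on the non-reference and 7.65, 7.57 and 7.74 on the reference arrays (0.44 ± 0.18, adjusted p = 0.168, and -1.04, adjusted p = 0.00692, for P12.5 minus each). Cdh5 differed by 0.29 ± 0.14 (adjusted p = 0.207) and -1.09 (adjusted p = 0.00117) in the same way. The member that fell was Slco1c1, a thyroid hormone transporter of the blood-retina barrier, with 5.40, 5.19 and 5.39 at P12.5, against 6.06, 6.46 and 6.29 on the non-reference arrays (-0.94 ± 0.15, adjusted p = 0.0102) and 7.05, 7.45 and 7.44 on the reference arrays. Slco1c1 was lowest at P12.5 on all 3 arrays. Flt1 was not lower in the non-reference arrays, and Kdr, Plvap and Lef1 were the other 3 that did not follow the 24.

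**Figure D3:**
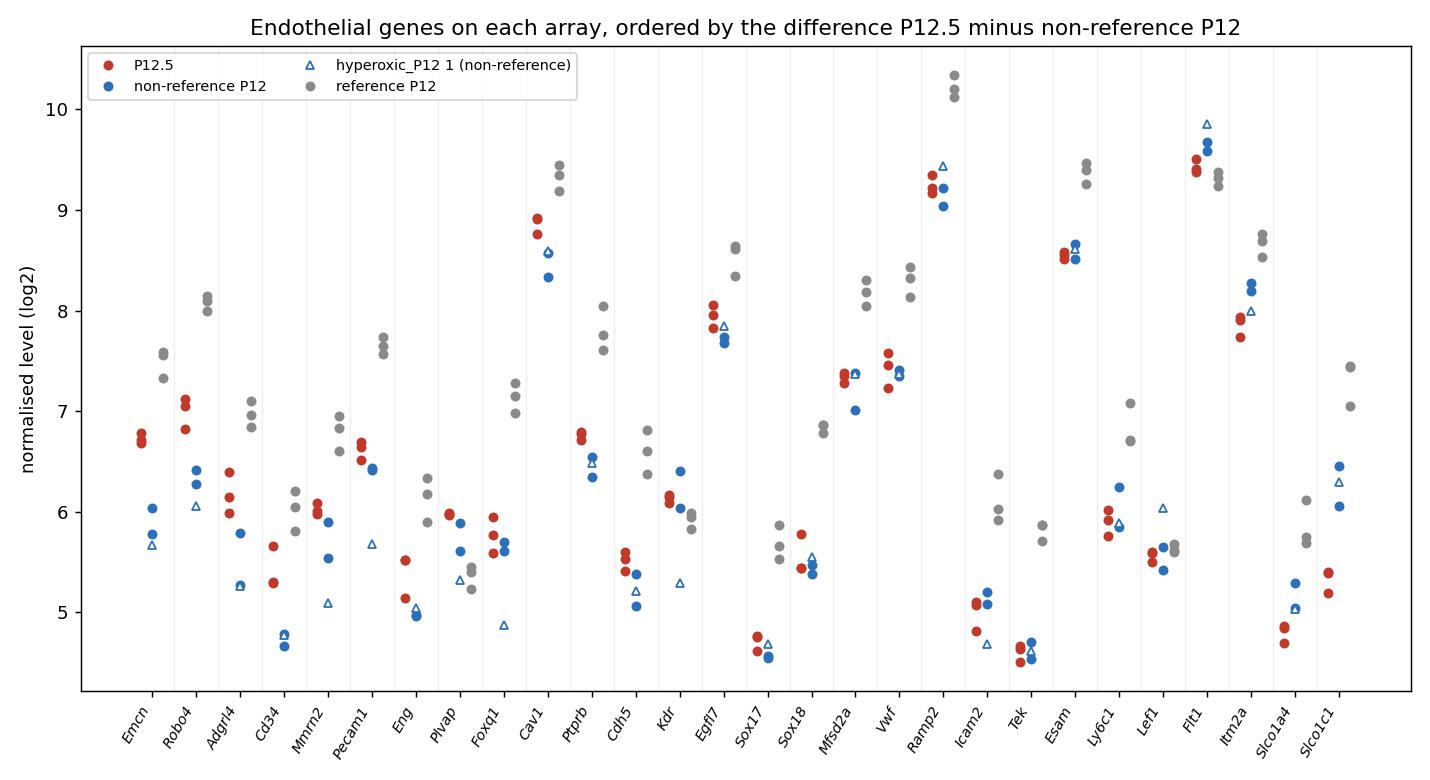
Normalised log2 levels (y axis) of 28 endothelial genes on each of 9 arrays, with P12.5 left, non-reference P12 in the middle (open triangle for hyperoxic 1) and reference P12 right within each gene. For 24 genes all reference arrays lie above the non-reference ones and above the P12.5 arrays.

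Mural genes gave a similar order. Of 11 tested pericyte and smooth muscle genes 1 rose and 1 fell against the non-reference arrays (median 0.18). Compared with the reference arrays 1 rose and 6 fell (median -0.56). Between the P12 sets 7 were lower in the non-reference arrays (median -0.76), and 4 were without hyperoxic 2 or without hyperoxic 3. Shares of all genes are those given for the endothelial list. All 11 were detected on every reference array, 4 on all non-reference arrays and 2 on no non-reference array. These genes too could enter the test through the reference arrays, so the counts involving that set are no measure of the list. Mcam, an adhesion molecule of pericytes and endothelium, read 7.25, 6.99 and 7.20 at P12.5, against 5.81, 5.68 and 5.38 on the non-reference arrays (1.52 ± 0.13, adjusted p = 5.94e-04) and 6.50, 6.29 and 6.31 on the reference arrays. Mcam was thus highest at P12.5 in both comparisons. Vtn, vitronectin, read 9.46, 9.71 and 9.64 at P12.5, against 10.08, 10.13 and 10.53 (-0.65 ± 0.14, adjusted p = 0.0327), with the reference arrays higher still at 10.83, 11.12 and 11.07.

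In basement membrane and matrix 6 of 24 genes rose and 1 fell (median 0.25), against 4.41% and 2.45% of all genes. Loxl2, a lysyl oxidase that cross-links collagen, rose by 1.26 ± 0.22 on 1 probe and 0.51 on its other, Plod2, a collagen lysyl hydroxylase, by 1.18 ± 0.18 on 1 and 0.25 on its other, and Ccn2, the connective tissue growth factor, by 1.12 ± 0.11. Ccn2 read 9.05, 8.80 and 8.89 at P12.5, against 7.92, 7.73 and 7.74 on the non-reference and 7.40, 7.62 and 7.61 on the reference arrays (adjusted p = 0.00137), clear of both. The collagen chain Col4a1 read 9.26, 9.35 and 9.34 at P12.5, against 8.39, 9.01 and 8.80 on the non-reference arrays (0.59 ± 0.15, adjusted p = 0.0453) and 9.80, 9.87 and 9.93 on the reference arrays. Nid2, a basement membrane linker, showed the same order, with set means of 6.09 at P12.5, 5.50 on the non-reference and 6.58 on the reference arrays. Sparc (1.20 ± 0.26) had 1 reference array, hyperoxic 2 at 8.59, above every P12.5 array. Vtn, the fall, belongs also to the mural list.

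Genes of reactive gliosis and the LIF and STAT3 response rose in 6 of 19 cases and fell in 0 (median 0.35). Over all genes 4.41% rose and 2.45% fell. At an unadjusted p under 0.05, 12 of the list were higher and 0 lower. Of the 9 detected on all 6 arrays compared, 4 rose, where 5.86% of all such genes rose. Osmr, the oncostatin M receptor, had levels of 6.97, 6.88 and 7.09 at P12.5, against 5.75, 5.95 and 5.48 (1.25 ± 0.18, adjusted p = 0.00732). Socs3, the feedback inhibitor of STAT3, had 6.36, 6.70 and 6.46, against 6.00, 5.58 and 5.70 (0.75 ± 0.13, adjusted p = 0.0172). Stat3 (0.50 ± 0.10) and S100a6 (0.80 ± 0.15) rose. The intermediate filament gene Nes and the acute-phase gene Serpina3n, neither detected on a non-reference array, were at least 1.36- and 1.14-fold higher (adjusted p = 0.00129 and 0.0135). Nes was detected on no P12 array and entered the test through the P12.5 arrays alone, so its place among the 6 is no measure of the list. Gfap, the classical filament of reactive glia, read 6.91, 6.77 and 6.60 at P12.5, against 6.35, 6.41 and 5.99. Its arrays did not overlap, yet it did not pass (0.51 ± 0.15, adjusted p = 0.0695); against the reference arrays it was 0.65 higher (adjusted p = 0.0231).

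On the quantile scale the Muller genes that passed were lower at P12.5. Of 22 tested Muller genes 0 rose and 3 fell, where 4.41% of all genes rose and 2.45% fell (median -0.07). At an unadjusted p under 0.05, 3 were higher and 7 lower, beside 1504 higher and 1430 lower of all 10956 genes. Under median centring 3 Muller genes were called higher and 0 lower, where 1389 of all genes were higher and 5 lower. On the deposited ratios 0 were called in either direction, so whether a gene of this list passes rests on the scaling. The 3 falls, Aqp4, Abca8a and Id3, kept their sign under both of these scalings. Aqp4, the water channel of glial endfeet, read 7.78, 7.88 and 7.91 at P12.5, against 8.38, 8.64 and 8.68 (-0.71 ± 0.11, adjusted p = 0.0109), with its 3 probes between -0.71 and -0.06. Abca8a, a lipid transporter, fell by 0.57 and lay 1.39 below the reference arrays, at a difference of -1.39 (adjusted p = 5.19e-05). Id3, a target of BMP signalling, differed by -0.57 ± 0.10. Glul, glutamine synthetase, had 7.33, 7.21 and 7.13, against 6.16, 6.34 and 5.09, a difference of 1.36 ± 0.38 that did not pass (adjusted p = 0.0578), and its reference arrays spread from 6.71 to 8.17.

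Stress and growth-arrest genes included some of the clearest separations. Cdkn1a, the cell-cycle inhibitor p21 and a p53 target, had levels of 8.90, 8.91 and 8.97 at P12.5, against 7.45, 7.43 and 7.61 on the non-reference and 6.84, 6.84 and 6.93 on the reference arrays (1.43 ± 0.10, adjusted p = 1.90e-04; second probe 0.98). Its P12 sets also differed, by 0.63 (adjusted p = 0.00811). In the list of p53 targets and cell death genes 3 of 19 rose, against 4.41% of all genes. They were Cdkn1a, the p53 target Phlda3 (0.59, adjusted p = 0.0389) and Tnfrsf12a. The 16 that did not pass ran from -0.38 for the death receptor Fas to 0.34 for Gadd45b, with the p53 targets Mdm2 at 0.03, Ccng1 at -0.14 and Plk2 at 0.24. Tnfrsf12a, the receptor of the cytokine TWEAK, read 8.0, 7.43 and 7.47 at P12.5, against 6.00, 5.69 and 5.99 (1.74 ± 0.17, adjusted p = 9.96e-04).

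The response to unfolded proteins, with its ATF4 arm, had 25 tested genes, of which 7 rose and 0 fell (median 0.28). Over all genes 4.41% rose and 2.45% fell. At an unadjusted p under 0.05, 13 of the list were higher and 1 lower. Nupr1, a stress-induced chromatin protein, had 8.62, 8.37 and 8.25 at P12.5, against 6.39, 6.73 and 7.57 (1.52 ± 0.27, adjusted p = 0.0166); hyperoxic 1 was the highest of the P12 arrays, and without it the difference was 1.86. Shmt2, a mitochondrial enzyme of one-carbon metabolism, rose by 0.96 ± 0.11 (0.47 on its other probe), and the chaperones Canx by 0.96 ± 0.21 and Hspa5 by 0.74 ± 0.18. Neither chaperone passed against the reference arrays, with Canx at 0.46 (limma adjusted p = 0.226) and Hspa5 at -0.09 (adjusted p = 0.831). Hspa5 was lower in the non-reference than in the reference arrays (-0.82, adjusted p = 0.0334). The transcription factors Atf4 (0.52, adjusted p = 0.065) and Ddit3 (0.27) did not pass. In the heat shock list Bag3, a co-chaperone, was the 1 of 19 that rose, with 8.12, 8.05 and 8.06 at P12.5, against 6.62, 6.58 and 6.47 (1.52 ± 0.12, adjusted p = 4.21e-04).

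Immediate early genes, switched on within minutes of a stimulus, rose in 4 of 17 cases and fell in 1 (median 0.16). For this list and the next, 4.41% of all genes rose and 2.45% fell. Fosl2 (1.21 ± 0.23), Fosb (0.63 ± 0.14) and Jun (0.56 ± 0.14), parts of the AP-1 factor, rose together with Ccn2, while Fos at 0.73 did not pass (adjusted p = 0.0829). Fosb did not pass against the reference arrays (0.20, limma adjusted p = 0.446). Of these, hyperoxic 2 read 8.21, against Fosb levels of 8.08, 8.02 and 8.28 at P12.5. Nr4a2, an orphan nuclear receptor, was the fall, with 5.95, 5.97 and 5.55 at P12.5, against 6.60, 6.57 and 7.12 (-0.94 ± 0.18, adjusted p = 0.02; other probe -0.16). Of the NRF2 and antioxidant list 3 of 22 rose, Mt1, Mt2 and Hmox1, and 1, Mt3, fell (median -0.02), with Nqo1 at -0.18 and Gclm at -0.22.

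Few inflammatory genes could be tested, 9 of 25 with a probe, and Ccl4, Ccl3 and Tnfrsf12a rose. Ccl4 and Ccl3 were tested only because the P12.5 arrays detected them, so no share of this list is read. Ccl4, a chemokine of activated microglia and macrophages, read 7.22, 7.00 and 6.70 at P12.5 and was detected on no non-reference or reference array, so it was at least 3.14-fold higher (adjusted p = 1.90e-04). Ccl3, its neighbour in the same family, was at least 1.33-fold higher (adjusted p = 0.0046). Genes of microglia and macrophages did not move one way. Spi1, the factor PU.1 of the myeloid lineage, read 5.19, 5.63 and 5.58 at P12.5, against 5.10, 4.84 and 4.79 on the non-reference arrays (0.56 ± 0.14, adjusted p = 0.0481) and 5.33, 5.30 and 5.50 on the reference arrays. Spi1 was detected on 1 non-reference array, and without hyperoxic 1 it did not pass (0.54, adjusted p = 0.0585). Cx3cr1, the fractalkine receptor, read 6.09, 6.05 and 5.94 at P12.5, against 6.75, 6.58 and 6.82 (-0.69 ± 0.12, adjusted p = 0.0166). The other 10 tested members of that list besides Ccl4 and Ccl3 did not pass and ran from -0.36 for C1qa to 0.45 for Trem2, with Aif1 at -0.06 and Tyrobp at 0.25.

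Among 14 tested interferon-stimulated and MHC genes the MHC genes H2-Ab1, H2-Q6 and H2-K1 rose. All 3 entered the test through the P12.5 arrays, the only set that detected them throughout, so their number is no measure of the list. H2-Ab1, a class II chain, read 7.78, 7.74 and 7.70 at P12.5, against 5.94, 6.09 and 5.44 on the non-reference and 5.07, 4.78 and 5.31 on the reference arrays (1.92 ± 0.18, adjusted p = 8.07e-04), and its 3 probes differed by 1.17 to 1.92. The class I genes H2-Q6 and H2-K1, detected on no P12 array, were at least 2.27- and 1.22-fold higher (adjusted p = 3.10e-04 and 0.00145); class I genes have near-identical copies, and which copy these probes read was not tested. Irf1 (0.21), Stat2 (-0.05) and Psmb8 (-0.28) did not pass.

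Among photoreceptor genes a few fell deeply and most did not pass. Arr3, cone arrestin, which quenches activated cone opsin, had levels of 7.04, 7.23 and 7.40 at P12.5, against 8.49, 8.51 and 9.07 on the non-reference and 9.55, 9.57 and 9.81 on the reference arrays (-1.47 ± 0.17, adjusted p = 0.0026; second probe -1.36). The P12 sets differed too, by -0.95 (adjusted p = 0.0149), and the 3 sets did not overlap. Opn1mw, the middle-wavelength cone opsin, read 11.47, 11.53 and 11.47, against 12.15, 12.08 and 12.39 (-0.72 ± 0.11, adjusted p = 0.00917). Opn1sw, the short-wavelength opsin, overlapped between the sets (-0.26 ± 0.12, adjusted p = 0.225), and the cone transducin Gnat2 was at -0.10. In the cone list 2 of 15 fell and 1, Kcne2, rose (median -0.11), against 2.45% and 4.41% of all genes. Kcne2 was detected on no non-reference array and has no lower bound of fold.

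Guca1b, a calcium sensor of photoreceptor guanylate cyclase, was the deepest of 3 falls among 25 tested rod genes, of which 0 rose (median -0.16; 2 higher and 8 lower at an unadjusted p under 0.05). Over all genes 4.41% rose and 2.45% fell. Over genes detected on all 6 arrays compared, 7 of 22 rod genes fell, against 6.78% of all such genes. Guca1b read 8.91, 9.33 and 9.04 at P12.5, against 10.15, 10.01 and 10.32 on the non-reference and 10.44, 10.28 and 10.47 on the reference arrays (-1.07 ± 0.13, adjusted p = 0.0046). Gnat1, rod transducin, fell by 0.45 on the quantile scale but was at 0.026 under median centring and 0.081 on the deposited ratios. Abca4, the retinoid transporter, fell by 0.53 while its 3 probes ran from -0.53 to 0.34. Sag, rod arrestin, was at 0.16, and Nrl and Crx, the factors of rod identity, at -0.17 and -0.23, and none of these passed. As a check of the tissue, 25 of 26 rod genes with a named probe could be tested. The medians of the rod and Muller lists turn to 0.31 and 0.29 with median centring, where the median of all genes is 0.37.

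For inner retinal neurons and the pathways that follow, the counts are of at most 4 genes in a direction, beside 4.41% of all genes that rose and 2.45% that fell, and nothing particular is read from them. Of 21 bipolar and horizontal cell genes 0 rose (2 higher at an unadjusted p under 0.05) and 2 fell, Lrtm1 (-0.53) and the horizontal cell factor Lhx1 (-0.48). Among those detected on all 6 arrays compared 5 of 18 fell, against 6.78% of all such genes. Of 22 amacrine and ganglion cell genes 0 passed (limma; at an unadjusted p under 0.05, 3 were higher and 2 lower), with a median of 0.02 and extremes of -0.57 for Pvalb and 0.39 for Isl2. In oxidative phosphorylation 4 of 47 rose, Sdhd, Sdha, Ndufv2 and Ndufc2, and 2 fell, Cyc1 (-0.49) and Ndufa8 (-0.46, and 0.014 on the deposited ratios). Ndufc2 was detected on no non-reference array and has no lower bound of fold. Cholesterol synthesis had 1 fall in 16, Fdps (-0.48; 0.00073 on the deposited ratios). In the clock list Arntl (0.72 ± 0.14) and Bhlhe40 rose among 16, and Per2 (0.05) and Dbp (-0.05) overlapped between the sets. Cell-cycle genes had 2 rises in 16, Pcna (0.58) and Mcm6 (1.01, with -0.28 on its other probe). Against the reference arrays neither passed, with Pcna at 0.26 (limma adjusted p = 0.287) and Mcm6 at 0.11 (adjusted p = 0.633). Mcm6 was lower in the non-reference than in the reference arrays (-0.90, adjusted p = 0.00278). Of 14 pigment cell genes Rdh10 rose and Pmel fell.

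**Figure D4:**
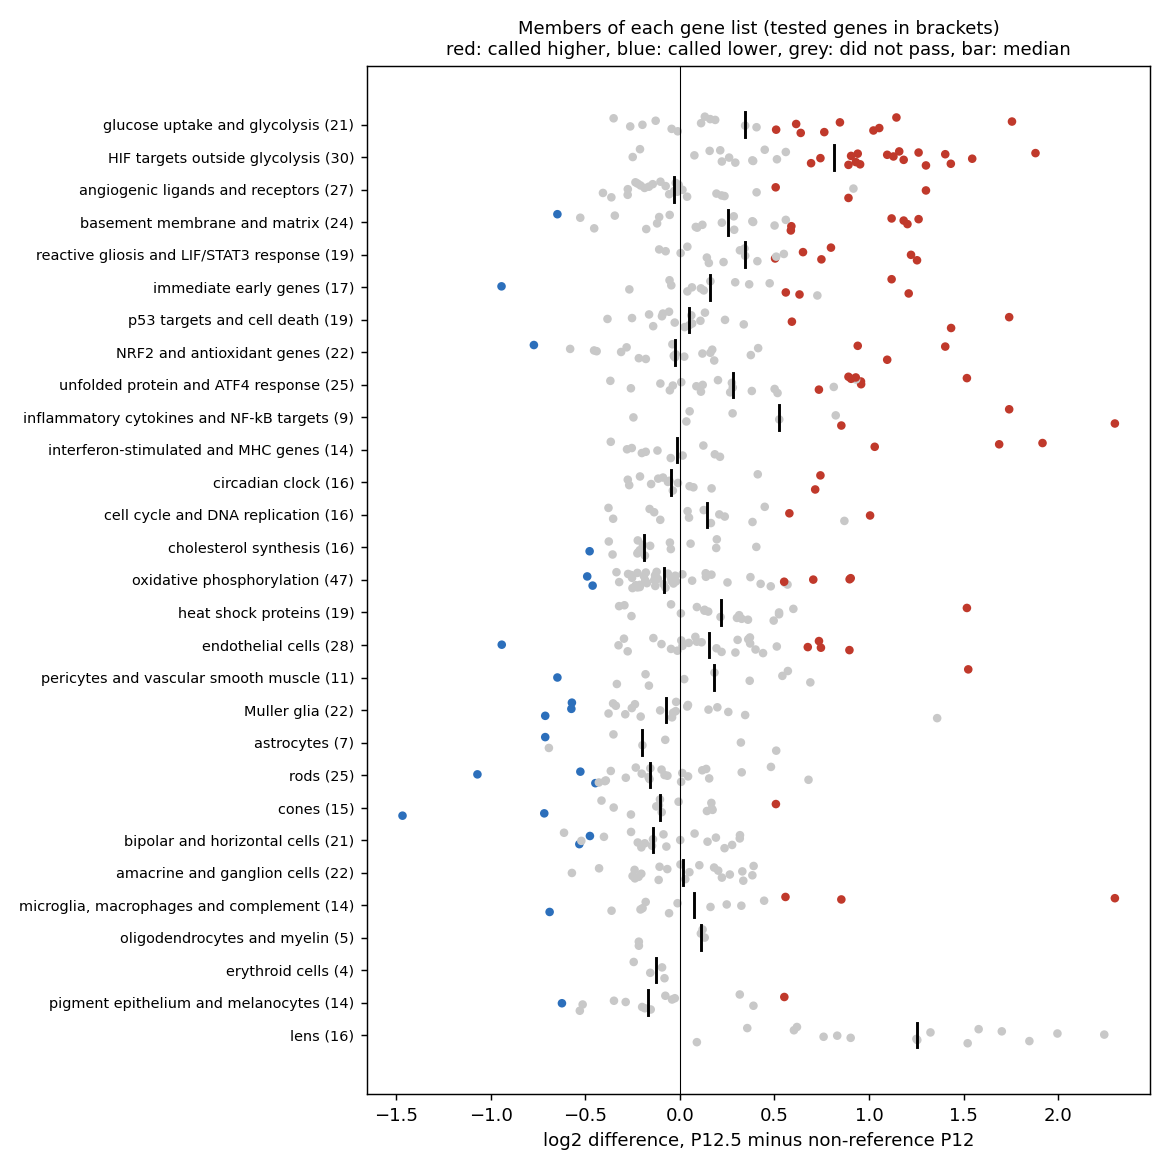
Every tested member of the 29 gene lists by its log2 difference, P12.5 minus non-reference P12 (x axis); red points rose, blue points fell, grey points did not pass and bars are medians. The HIF target list has the highest median of the pathway lists, 0.82, and the lens list has a median of 1.25 with 0 members called.

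Lens genes spread too widely for any to pass. The mean log2 level of the 16 tested lens genes was 9.58, 7.34 and 7.25 on the P12.5 arrays, 5.55, 6.45 and 8.63 on the non-reference arrays, and 6.02, 6.57 and 6.16 on the reference arrays. Hypoxic 1 and hyperoxic 1 were thus the highest 2 arrays. The difference of the set means had a median of 1.25 over the list with 0 called by limma and 1 higher at an unadjusted p under 0.05, and without hyperoxic 1 it was 2.37 with 9 called. Globin and erythroid genes, 4 tested, had 0 called by limma and 0 at an unadjusted p under 0.05 (median -0.13), and their mean level ran from 6.96 to 8.04 at P12.5 and from 7.22 to 7.75 on the non-reference arrays. The part of lens or blood in other results was not tested.

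The largest rises outside the lists were of mixed function. Tubb6, a beta-tubulin, read 7.69, 7.42 and 7.20 at P12.5, against 5.57, 5.55 and 5.09 on the non-reference arrays (2.03 ± 0.19, adjusted p = 8.19e-04), but the reference arrays stood at 6.55, 7.13 and 6.74 and the difference from them did not pass (0.63, adjusted p = 0.0673). Anxa2, a membrane-binding annexin, read 10.03, 9.99 and 9.80, against 8.27, 8.29 and 8.32 (1.65 ± 0.11, adjusted p = 1.90e-04; other probe 0.50), with 9.27, 8.96 and 9.18 on the reference arrays. Cct5, a chaperonin subunit (1.83 ± 0.29), Dzank1 (1.80 ± 0.38) and the paraspeckle RNA Neat1 (1.65 ± 0.25) rose against the non-reference arrays, while against the reference arrays they were at 0.50, 0.56 and 0.45 and did not pass. For Tubb6, Cct5 and Neat1 the non-reference arrays were below the reference ones (-1.40, -1.33 and -1.20, adjusted p = 0.00411, 0.0349 and 0.029).

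The largest falls outside the lists kept their sign against either P12 set. Peli3, a ubiquitin ligase of the Pellino family, read 6.68, 6.88 and 6.58 at P12.5, against 8.07, 7.71 and 7.80 on the non-reference arrays (-1.15 ± 0.14, adjusted p = 0.00346), and lay at -1.61 against the reference arrays. Plcd3, a phospholipase C, read 6.85, 7.02 and 6.83, against 7.93, 7.84 and 8.35 (-1.14 ± 0.16, adjusted p = 0.00613). Rdm1 (-1.13 ± 0.14), the glutathione transferase Gstt3 (-0.95 ± 0.11), the glucokinase regulator Gckr (-0.93 ± 0.18), Thrsp (-0.93 ± 0.20) and the chitinase-like Chil1 (-0.87 ± 0.13) fell likewise, and each was also lower than the reference arrays at the threshold. Tmem267 (-1.29 ± 0.28) fell against the non-reference arrays, where control 3 at 9.33 stood above control 2 and hyperoxic 1, and did not pass against the reference arrays (-0.77, adjusted p = 0.118).

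Leaving out hyperoxic 1 kept most of these results. Of 84 named genes that passed with all arrays 77 passed without it, and all 84 kept their direction. The 7 that no longer passed had differences between -0.53 and 0.56, among them Gnat1 (-0.38, adjusted p = 0.0561), Abca4 (-0.49, adjusted p = 0.053), Fdps (-0.37) and Pdgfb (0.45, adjusted p = 0.0576). In the HIF target list 17 of 30 rose without it (median 0.85), and in glycolysis 10 of 21 (median 0.27), with 0 falls in either, against 5.09% of all genes higher and 3.16% lower. Hyperoxic 1 read lowest of the non-reference arrays for several genes, and without it the difference was smaller for Igfbp3 (1.64), Hif1a (1.53), Dzank1 (1.27) and Neat1 (1.32). For Nupr1 (1.86) and Bhlhe40 (0.93) it was larger.

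**Figure D5:**
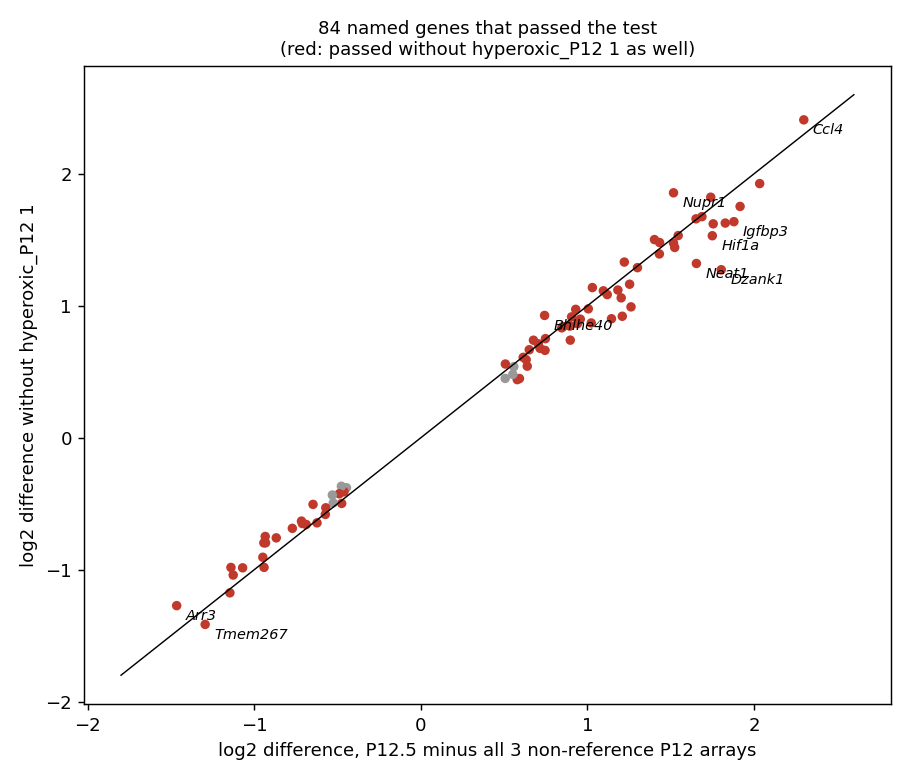
Log2 difference of the 84 named genes that passed, with all 3 non-reference P12 arrays (x axis) and without hyperoxic 1 (y axis); the line marks equal values, red points passed in both and grey points did not pass without it. Points lie along the line, with Dzank1 and Neat1 below it and Nupr1 and Bhlhe40 above it.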

How the data were processed

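The deposited table gives, for every probe and array, an intensity, a ratio and a detection p-value. Per the labels' protocols, RNA from both retinas of 1 mouse was amplified to biotin-labelled cRNA for Illumina arrays; for scanner settings and software, the labels name nothing. The deposited intensity values looked unnormalised, and the deposited ratio values were relative to the median of 3 arrays. The deposited detection p-value columns were matched to arrays by their order with the signal, since 5 stood beside another array.

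Of 46640 probes, 27 at 0 on all arrays were left out. Intensities were background corrected and quantile scaled with neqc (limma 3.58.1, R 4.3.3; offset 16; negative controls inferred from detection p), and differences between set means were tested with lmFit and eBayes on all 9 arrays, 2-sided, with Benjamini-Hochberg adjustment over the 19626 probes that every array of some set detected (p under 0.05). A symbol was given to 32781 probes, 55 had several and 13777 none. The most intense tested probe stands for a gene.

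Named genes were the 12 largest rises and falls with non-overlapping arrays and a proper symbol, up to 4 called members of lowest p per list, and 32 followed genes. The members and lists were chosen with earlier results of these data known. A probe detected on no non-reference array has a lower bound of fold, set against the lowest signal of a detected probe, where its mean P12.5 level lies above that signal. Kcne2 and Ndufc2 have no such bound. Array number limits precision, and p-values measure the spread between single mice. Background, scaling, filter, array weights, sex pattern, replicate block and each of the 6 arrays compared left out were tried as alternatives, and, added after seeing the data, each reference array left out. The fit was tested on simulated data. Tables and plots used Python 3.11.15, pandas 2.3.3 and matplotlib 3.10.9.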

Additional observations from a re-analysis of the deposited data

Results flagged for a closer look

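Of all genes tested 7 were called in opposite directions against the P12 sets, higher at P12.5 than on the non-reference arrays and lower than on the reference arrays. They were Emcn, Robo4, Cd34, Cd93, Adgrl4, Nostrin and Col4a1, and the named endothelial genes Emcn, Robo4 and Cd34 are given here. Non-reference minus reference P12 was -1.66 for Emcn, -1.83 for Robo4 and -1.28 for Cd34 on the log2 scale; the choice of genes fixes this direction, so these values are a description with no test. All 3 P12.5 arrays lay between the P12 sets for each gene.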

How the results depend on the processing

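With 3 mice per set, calls depended on the array count and on scaling. Against the non-reference arrays 828 probes were higher and 384 lower; the counts were 2371 and 10 under median centring, 25 and 0 on the deposited ratios, 378 and 218 without the filter on dim probes, 2180 and 1654 with array weights, and 512 and 189 with the sex pattern as a term. Lower calls alone moved to 640 with normexp, 671 without background correction, 784 over probes detected on all 6 arrays and 644 with a trended, robust eBayes. Leaving out 1 of the 9 arrays gave 104 to 1047 higher and 26 to 602 lower; the counts were 406 and 151 without hyperoxic 3, and the lower calls were 198 without control 3 and 602 without hyperoxic 1. Leaving out the reference arrays was chosen after seeing the data, as was using only the 6 arrays without hyperoxic 1, which gave 1709 and 1110.

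Between the non-reference and reference P12 arrays 331 probes were higher and 535 lower; the counts were 14 and 319 under median centring, 2 and 32 on the deposited ratios, 973 and 1325 with array weights, and 185 and 338 with the sex pattern. Higher calls alone moved to 513 with normexp, 576 without background correction, 680 over probes detected on all 6 arrays and 526 with the trended fit, and lower calls to 331 without the filter. Leaving out 1 of the 9 arrays gave 65 to 395 higher and 161 to 742 lower: 65 and 162 without hyperoxic 2, 85 and 161 without hyperoxic 3, 143 to 151 and 271 to 291 without a P12.5 array, 158 and 298 without control 2, and 220 higher without control 3.

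Deviations from the set means correlated at -0.22 to 0.19 between same-numbered arrays. No pairing by number was seen in these values, and arrays of different number were not compared, so a pairing was not settled. The replicate block gave 670 higher and 201 lower against the non-reference arrays, and 181 higher and 436 lower between the P12 sets. The sign turned for Gnat1, at 0.0256 under median centring and 0.081 on the deposited ratios, and on those ratios for Ndufa8 at 0.0145 and Fdps at 0.000727. Of 84 named called genes 60 passed under median centring, 11 on the deposited ratios, 70 with the block 38 to 42 without a P12.5 array and 64 without hyperoxic 3; the cause was not tested.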

Other observations

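The genes in this section were chosen after their values were seen, and no share of any pathway is read from them. Gys1, muscle glycogen synthase, read 7.00, 7.07 and 7.05 at P12.5, against 6.04, 6.34 and 5.60 on the non-reference arrays (1.05 ± 0.17, limma adjusted p = 0.0118), and Gbe1, the branching enzyme, differed by 1.08 ± 0.17 (adjusted p = 0.00988). Both were also higher than the reference arrays, at 1.03 and 0.69.

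Synpo, an actin-associated protein, read 7.14, 7.09 and 6.88 at P12.5, against 5.60, 5.68 and 5.58 on the non-reference and 5.62, 5.72 and 5.51 on the reference arrays (1.42 ± 0.11, adjusted p = 3.28e-04), level between the P12 sets. Pdlim1 differed by 1.46 ± 0.14 and Tagln2 by 1.23 ± 0.10, and Flnc, a filamin, was at least 1.57-fold higher. Among falls, the iron exporter Slc40a1 read 6.51, 6.54 and 6.37 at P12.5, against 7.07, 7.12 and 7.03 on the non-reference and 8.12, 7.79 and 7.98 on the reference arrays (-0.60 ± 0.11, adjusted p = 0.019), and Trf, transferrin, differed by -0.67 ± 0.11.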
